A study of Homo sapiens with 2 samples.

Results

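The 5 metabolic genes, SLC2A1, HK2, LDHA, PKM and PPARGC1A, were examined for PROX1 peaks in a human colorectal cancer line. A peak was taken for a gene when its centre lay in an hg18 span made of the gene and about 50 kb on each side. The 5 spans together held 17 of the 23450 listed peaks, over 742 kb. No span was without a peak, but the numbers were very unequal, with 11 peaks in the SLC2A1 span, 3 in the PKM span and 1 each in the HK2, LDHA and PPARGC1A spans. Choosing by position alone used neither the tags nor the folds of the peaks.

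The peaks came from chromatin immunoprecipitation and sequencing (ChIP-seq) with a goat antibody against human PROX1 in SW480R cells, a subpopulation of the SW480 colorectal adenocarcinoma line. DNA of 3 independent immunoprecipitations was pooled into 1 ChIP library and compared with 1 input library, made from chromatin that had not been immunoprecipitated. Neither library carries a treatment or genotype label, and with 1 library of each kind the data hold no spread between replicates and no test between conditions. Intervals below are exact Poisson 95% intervals that cover counting error only and take neighbouring peaks as independent.

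PROX1 is a homeodomain transcription factor, related to Drosophila Prospero, that is required for lymphatic, liver and lens development and is expressed in part of colorectal tumours. In mouse liver it is known to bind the nuclear receptor ERR-alpha and its coactivator PGC-1alpha, the product of PPARGC1A, and to restrain their activity at genes of energy metabolism. Of the other members, SLC2A1 encodes the glucose transporter GLUT1, HK2 a hexokinase that traps glucose in the cell as glucose 6-phosphate, PKM the pyruvate kinase that makes pyruvate in the last step of glycolysis, and LDHA the lactate dehydrogenase subunit that turns pyruvate into lactate.

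The promoters of SLC2A1, PKM and LDHA are shown because they belong to the span with the most peaks, to one with a peak within 1 kb of the nominal gene start, and to the one whose nearest peak lay farthest from that start. The nominal start is the place 50 kb inside the edge of the span on the promoter side. Each sequence is the 250 bases before a RefSeq gene start on GRCh38.p14, 5′ to 3′ in the direction of the gene. Capitals mark the E-box CACGTG, which reads the same on both strands, and, on either strand, the letters CCAAT known as the CCAAT box and the letters TATAAA known as the TATA box. The windows lie at chr1:42958869-42959118 (minus strand), chr15:72231191-72231440 (minus strand) and chr11:18394313-18394562 (plus strand), in another build than the peaks, so no peak was placed on these letters.
SLC2A1: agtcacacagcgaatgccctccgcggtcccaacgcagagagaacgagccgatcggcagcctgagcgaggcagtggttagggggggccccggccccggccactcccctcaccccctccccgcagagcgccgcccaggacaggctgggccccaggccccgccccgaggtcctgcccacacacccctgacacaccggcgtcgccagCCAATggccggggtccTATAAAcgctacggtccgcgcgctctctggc
PKM: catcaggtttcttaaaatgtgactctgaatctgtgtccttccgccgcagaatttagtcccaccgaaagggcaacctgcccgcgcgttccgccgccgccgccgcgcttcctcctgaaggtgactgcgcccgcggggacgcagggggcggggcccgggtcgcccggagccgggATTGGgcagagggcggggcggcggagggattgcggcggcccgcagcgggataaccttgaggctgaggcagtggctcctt
LDHA: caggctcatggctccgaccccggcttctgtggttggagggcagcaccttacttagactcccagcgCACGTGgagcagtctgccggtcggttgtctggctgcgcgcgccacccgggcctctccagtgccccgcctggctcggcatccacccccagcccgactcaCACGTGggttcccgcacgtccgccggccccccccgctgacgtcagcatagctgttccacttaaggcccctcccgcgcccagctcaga
The SLC2A1 promoter held a CCAAT 47 bases and a TATAAA 31 bases before the gene start, counted to the first base of the motif. PKM held CCAAT on the strand opposite to the gene, so that it is printed as ATTGG, 79 bases before the start. CCAAT was not confined to these genes, as an HK2 window that is not printed held it 118 and 62 bases before the start. RefSeq lists 2 LDHA starts, and the window of the more upstream one is printed. It held the E-box at 185 and 87 bases before the start, while the window of the other start (64.8% guanine and cytosine) held 0. The E-box was not confined to LDHA. Among the windows not printed, an HK2 window held it at 194 and 149 bases and a PPARGC1A window at 123 bases before the start. That PPARGC1A window belongs to the more upstream of its 2 RefSeq starts, neither of which was matched to the nominal start. The other HK2 window and the other PPARGC1A window held 0. The letters of the E-box include the ACGTG core known from hypoxia-response elements. CACGTG was present in 6.34%, CCAAT in 32.0% and TATAAA in 10.7% of the 35116 RefSeq promoter windows of this length. AAGGTCA, the nuclear receptor element that ERR-alpha is known to bind, occurred in 3.44% of these windows and in none of the 8 windows listed for the 5 genes. The guanine and cytosine content of the printed windows was 72.4% for SLC2A1, 68.4% for PKM and 69.6% for LDHA, against a median of 58.0% over all windows.

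In the whole list, 23417 peaks lay on the nuclear genome at 0.0076 per kb, or 1 peak in 132 kb. Their median was 25 ChIP tags (interquartile range 17 to 44) and a fold over input of 19.05. All peak scores are those of the authors and order peaks only inside this list. The lowest fold listed was 13.03, and a place whose fold falls below it would not appear. No source used here gives the total reads of either library.

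The SLC2A1 span was the only one of the 5 whose interval lay above the genome rate. It held 11 peaks in 135 kb, 0.0815 per kb (interval 0.0407 to 0.146), which is 10.7 times the genome rate (5.35 to 19.2). When the genome was cut into consecutive tiles of the same length, 0.693% of 22803 tiles held 11 or more peaks, and 38.9% held 1 or more. The SLC2A1 surroundings were also rich in peaks: the 1 Mb on either side held 42 peaks, 0.021 per kb (0.0151 to 0.0284). Among the 11725 listed peaks with the highest folds the span held 3, and 5.98% of tiles held 3 or more of these. Against its surroundings the span stood at 3.88 times, and against the whole of chromosome 1 (0.00915 per kb) at 8.91 times.

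**Figure D1:**
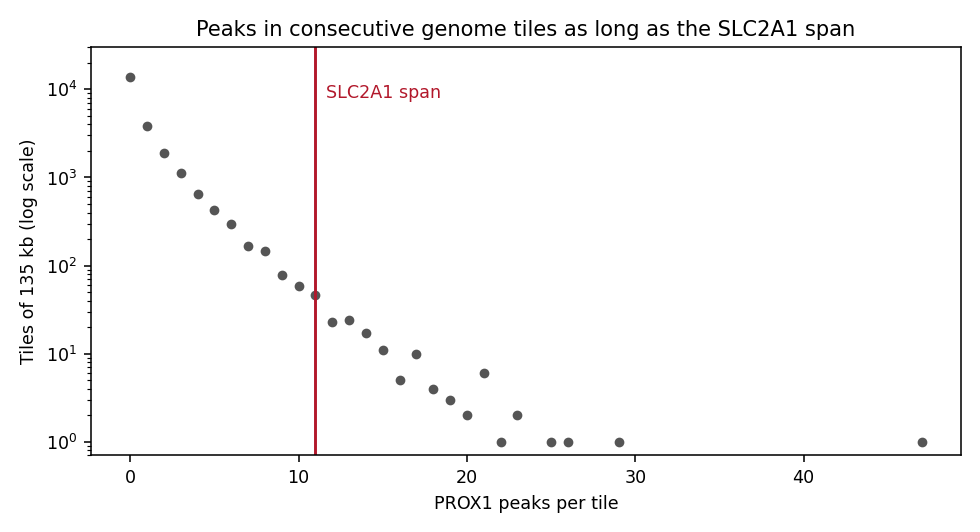
Number of consecutive 135 kb genome tiles (log scale) that held each number of PROX1 peaks, with a red line at the 11 peaks of the SLC2A1 span. Most tiles held no peak, and 0.693% held 11 or more, up to 47.

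The SLC2A1 peaks lay on both sides of the gene and along it. With the promoter side as upstream, 5 peaks lay upstream of the nominal gene, 4 on it and 2 downstream. Joining peaks whose edges were within 10 kb gave 4 places, and 1.99% of genome tiles held 4 or more. The first was a run of 6 peaks over 27.86 kb, from 43151791 to 43179651 of chromosome 1, which reached from beyond the end of the nominal gene into its downstream part. Runs of 6 or more peaks made up 1.86% of the 14752 such places in the nuclear genome. The next place was a single peak upstream of the start, then another single peak, then 3 peaks at the far upstream edge of the span.

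The 5 SLC2A1 peaks with the most tags held 61 to 184 tags each. The first, at 43247011 to 43247071, had 184 ChIP tags with a fold of 18.45. Its neighbour 140 bp away, at 43247211 to 43247251, had 143 tags with a fold of 14.34. Only 1.02% of nuclear peaks had as many tags as the first and 2.15% as many as the second, yet their folds were reached by 54.0% and 80.3% of nuclear peaks. Both had an inferred input of 10 tags, the number of input tags that the deposited fold implies.

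The SLC2A1 peak with the highest fold was the third of that group of 3. It lay at 43246231 to 43246271 and had 61 tags, a fold of 61.15 and the lowest inferred input, 1, and 4.54% of nuclear peaks had as high a fold. The peak nearest the nominal start, at 43201811 to 43201951, lay 3.88 kb upstream of it, with 70 tags and a fold of 47.12 (8.88% of nuclear peaks had as high a fold). The peak at 43174951 to 43175051 also had 70 tags, but a fold of 17.54, and lay inside the nominal gene 23.0 kb from its start. The last 3 peaks, with similar tags of 61 to 70, thus had very different folds. The other 6 SLC2A1 peaks had 14 to 48 tags and folds from 13.03 to 24.06.

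The 3 upstream edge peaks weighed heavily in the tags. They held 388 of the 689 tags counted in the listed peaks of the SLC2A1 span (56.3%), and all lay within 2 kb of the span's edge. The RefSeq order of protein-coding genes (GRCh38.p14) puts CFAP144 next on that side. Tags per kb here count only tags in listed peaks, spread over the whole length, and are not the density of all ChIP reads. With these 3 peaks, the span had 5.10 peak tags per kb, 17.8 times the 0.287 of the nuclear genome. Without them it had 2.23 peak tags per kb, 7.78 times the genome value, from 8 peaks. The nearest listed peak beyond that edge lay 24.47 kb outside, at 43272451 to 43272491 with 16 tags, and the one beyond the other edge 28.29 kb outside with 31 tags.

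**Figure D2:**
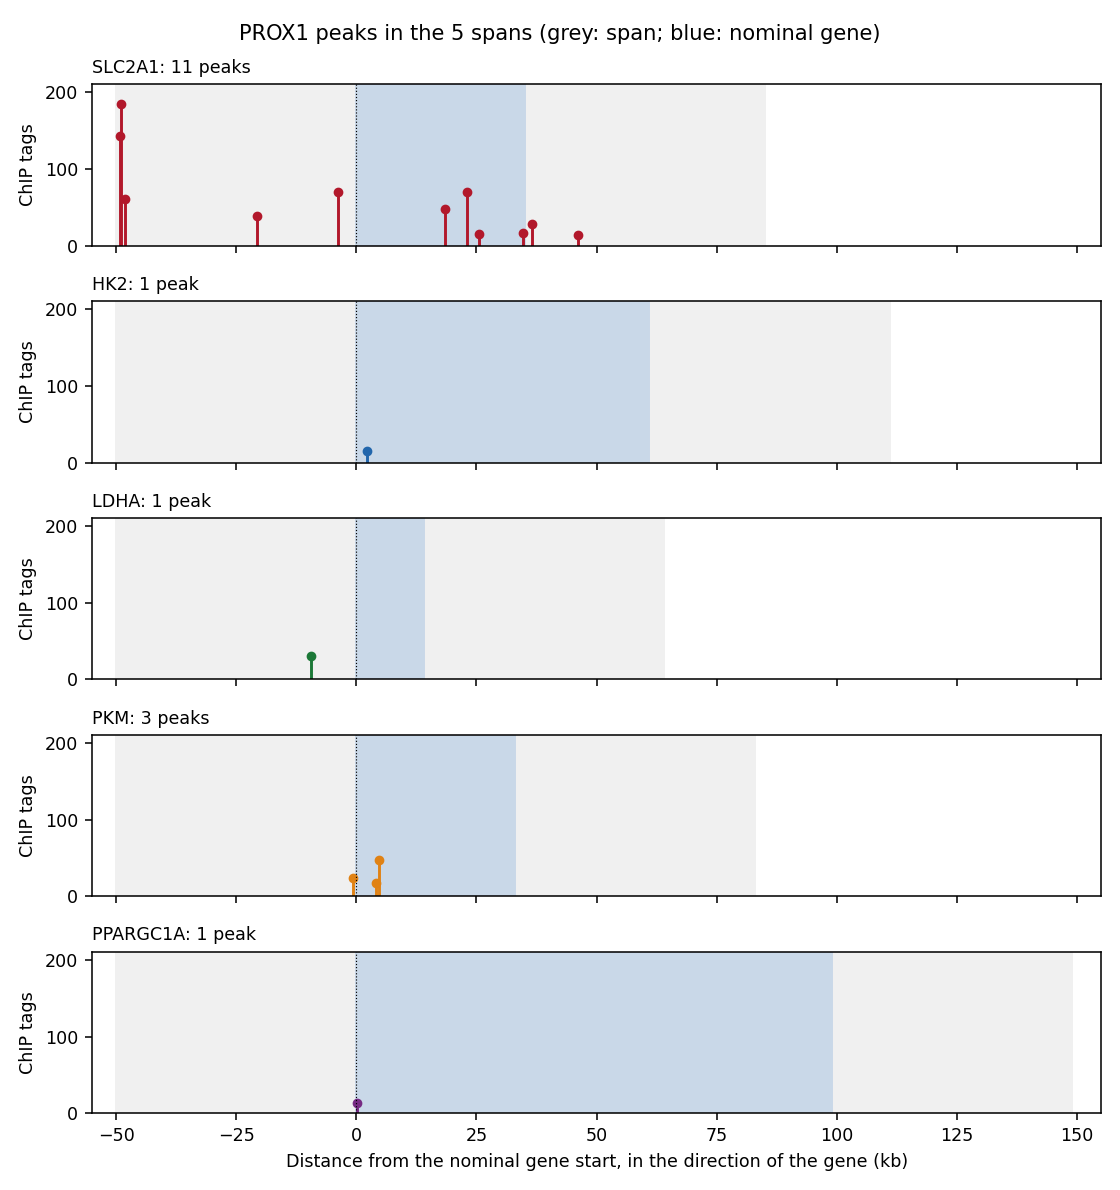
ChIP tags of each PROX1 peak against its distance (kb) from the nominal gene start, in the direction of the gene, with the span in grey and the nominal gene in blue. SLC2A1 has 11 peaks with the tallest at the upstream edge, PKM has 3 within 5 kb of the start, and HK2, LDHA and PPARGC1A have 1 each.

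The PKM span held 3 peaks, all close to the promoter end of the gene. The peak at 70311711 to 70311751 of chromosome 15 lay 0.73 kb upstream of the nominal start and had 24 tags at a fold of 24.06. Downstream of the start, inside the nominal gene, 70306771 to 70306891 lay 4.17 kb away with 17 tags at a fold of 17.04. At 4.72 kb, 70306231 to 70306331 had 48 tags, also at a fold of 24.06, with an inferred input of 2 against 1 for the other PKM peaks. The peaks with 24 and 48 tags therefore shared the same fold.

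The rate in the PKM span was not distinguishable from that of the genome at this number of peaks. It was 0.0226 per kb (0.00465 to 0.0659), 2.97 times the genome rate with an interval of 0.612 to 8.67. Tiles of this length with 3 or more peaks made up 13.3% of the genome. The PKM peaks lay within 5.52 kb of each other and formed 1 place when joined at 10 kb. No other peak was listed for 217.3 kb on the downstream side and 241.3 kb on the upstream side, on which PARP6 is the next protein-coding gene.

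HK2, the hexokinase gene, had a single weak peak near its start. It lay at 74916111 to 74916231 of chromosome 2, 2.17 kb downstream of the nominal start, with 15 tags and a fold of 15.04, and 85.4% of nuclear peaks had as many tags. A single peak in 161 kb was 0.817 times the genome rate (0.0207 to 4.55), and 43.0% of tiles of this length held 1 or more. Just outside the HK2 span, 15.53 kb beyond its upstream edge, lay a peak at 74848451 to 74848491 with 38 tags and a fold of 38.09, both higher than those of the peak inside. The next peak on the other side was 109.35 kb outside.

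LDHA had 1 peak, and none on the nominal gene itself. At 18362451 to 18362591 of chromosome 11, it lay 9.48 kb upstream of the nominal start, on the side where GTF2H1 is the next protein-coding gene, and had 31 tags at a fold of 15.54. Of the 5 nominal starts, that of LDHA lay farthest from a listed peak. The rate was 1.15 times that of the genome (0.0292 to 6.43), and 35.3% of tiles of this length held 1 or more peaks. The 1 Mb on either side held 27 peaks, 0.0135 per kb (0.0089 to 0.0196), against which the LDHA span stood at 0.65 times. No other peak was listed for 142.7 kb downstream of it, the side on which the next protein-coding gene is LDHC, which encodes the testis form of the enzyme, and for 327.2 kb upstream.

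PPARGC1A had 1 peak, the closest of all 17 to a nominal start and among the weakest. It lay at 23500851 to 23500891 of chromosome 4, 0.13 kb from the nominal start, with 14 tags and a fold of 14.03, and 92.2% of nuclear peaks had as many tags. The lowest tag number in the list was 13. The rate of 0.00503 per kb was 0.661 times that of the genome (0.0167 to 3.68) and 1.21 times that of chromosome 4, where peaks are sparse (0.00417 per kb). Tiles of this length with 1 or more peaks made up 47.4% of the genome. The peak stood alone, with no other listed within 516.7 kb on the downstream side and 529.4 kb on the upstream side. PPARGC1A is known to be transcribed from several promoters, one of them far upstream of the span. Neither of the 2 starts that RefSeq lists for it could be matched to the nominal start, so the 0.13 kb is a distance to a place set by the span and not to an annotated start.

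**Figure D3:**
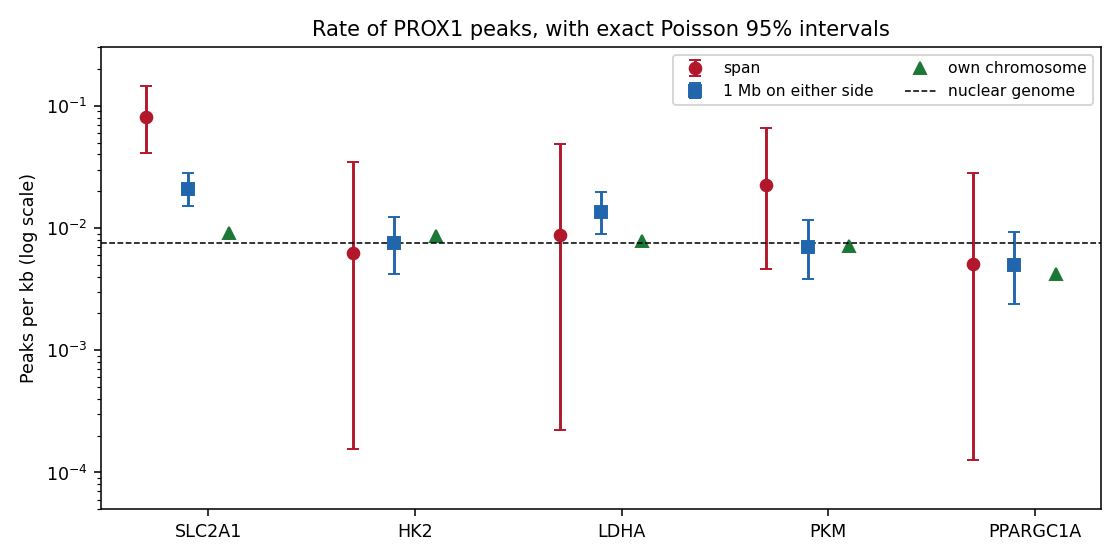
PROX1 peaks per kb (log scale) in each span (red circles), in the 1 Mb on either side (blue squares) and on the gene's own chromosome (green triangles), with the nuclear genome as a dashed line and bars for exact Poisson 95% intervals. The SLC2A1 span, at 0.0815 per kb, lies above its surroundings, its chromosome and the genome, while the intervals of the other 4 spans include the genome rate.

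Peaks near the nominal starts were common among the 5 genes. A peak centre lay within 1 kb of the start for 2 genes (PKM and PPARGC1A), within 5 kb for 4 (SLC2A1 and HK2 in addition) and within 10 kb for all 5, where the nominal start of PPARGC1A was not matched to an annotated one. Of the bases of the nuclear genome, 1.27% lay within 1 kb of a peak centre, 5.46% within 5 kb and 9.89% within 10 kb. These distances were chosen after the positions were seen. The same share among the starts of other genes was not measured, since no hg18 annotation was used here, so the closeness cannot be called particular to these genes. The span edges are rounded and the flanks are about 50 kb, so a true gene start may differ from the nominal one, and distances under 1 kb carry little precision.

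In tags, the median of the SLC2A1 peaks and that of the other genes' peaks lay on different sides of the nuclear median, though single peaks of both groups lay on either side. All 17 had a median of 31 tags against 25 for nuclear peaks, and 10 had more tags than that nuclear median (49.4% of nuclear peaks did). The 11 SLC2A1 peaks had a median of 48 tags, with 8 above the nuclear median, and the 6 peaks of the other genes a median of 20.5, with 2 above it. The median fold of all 17 was 17.04 against 19.05, and 5 lay above the nuclear median (49.6% of nuclear peaks did). It was 17.04 for the SLC2A1 peaks and 16.29 for the other 6. A fold of 26.06 or more, 2 times the lowest fold listed, was reached by 2 of 17, against 30.3% of nuclear peaks. Both lay in the SLC2A1 span, upstream of the gene, and 6.94% of tiles of its length held 2 or more. Input inferred at 5 tags or more lay behind 2 of 17 against 4.42% of nuclear peaks, and these were the neighbouring peaks with 184 and 143 tags. The lowest inferred input was found for 8 of 17 against 71.9% of nuclear peaks. Several of the 17 lie side by side in a run, so they are not independent, and no test was made. Whether more copies of the SLC2A1 region in the cells bear on its tags in both libraries was not tested.

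**Figure D4:**
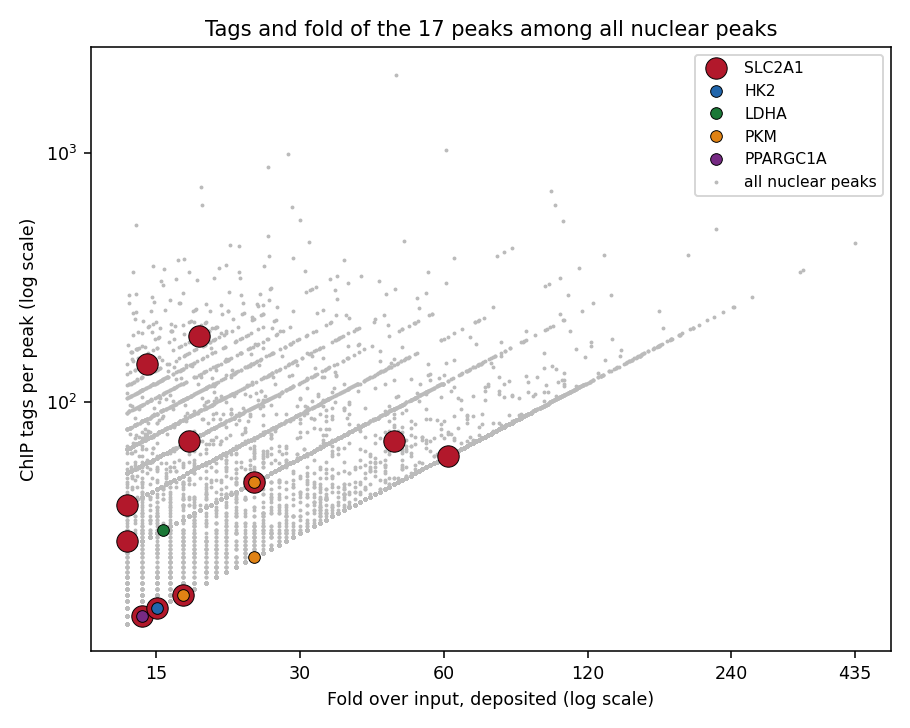
ChIP tags per peak against the deposited fold over input (both log scale) for the peaks of the 5 genes (coloured, SLC2A1 with larger markers) among all nuclear peaks (grey). The SLC2A1 peaks with 184 and 143 tags lie high at folds of 18.45 and 14.34. The single peaks of HK2 and PPARGC1A lie near the lower left corner of the list, each with the same tags and fold as an SLC2A1 peak.

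All 5 spans pooled gave 3.01 times the genome rate (1.76 to 4.83), but this rested on SLC2A1. Without its span, the other 4 held 6 peaks in 607 kb, 1.30 times the genome rate (0.477 to 2.83). Their tags in listed peaks, per kb, were 0.856 times those of the genome.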

How the data were processed

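PROX1 ChIP-seq and input DNA of SW480R cells were sequenced as 1 library each, with 3 immunoprecipitations pooled, 5 µg of antibody and 10 ng of DNA per library, per the labels' protocols and the series' design text. Per the submitters' processing notes, positions are on hg18. No aligner, peak caller or calling threshold is named there or in the labels. The authors deposited a peak list without a header, so the columns were read from their values. The tag counts per peak are deposited as whole, unnormalized numbers. The fold, as deposited, behaves like a ratio of ChIP tags over input tags. The deposited p-value reaches at most 0.00099 and cannot be told from a q-value. It could not be told if starts count from 0 or 1, so coordinates are printed as listed.

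Peaks were assigned by their centre. Rates used chromosome lengths of 24 nuclear chromosomes from GenomeInfoDb 1.38.1 and, for length without gaps, contigs from IRanges 2.36.0. Inferred input is tags times 1.0025 divided by the fold. It was whole within 0.02 for 91.6% of all peaks and 15 of the 17, and is an approximation elsewhere. Python 3.11.15, numpy 2.4.6, pandas 2.3.3, scipy 1.17.1 and matplotlib 3.10.9 were used, and counting and input inference were tested on simulated data. The simulated folds were built with the same formula, so they check the code only and cannot show whether the deposited fold is such a ratio. All peaks were named where a span held few, and the 5 with the most tags in the SLC2A1 span. Genes, lists and tests were chosen with earlier results of these data known, and the SLC2A1 edge group, the near-start distances and the alternatives without SLC2A1 were chosen after seeing the values. Promoters and gene order came from RefSeq tables on GRCh38.p14, in which all 5 genes matched by symbol.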

Additional observations from a re-analysis of the deposited data

How the results depend on the processing

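Of 91 alternatives over 18 values, 69 left the value close to that reported. Close meant within its 95% interval for a rate, within the interquartile range for a median and within 1.5 times for a count. The intervals of spans with 1 peak are wide (0.0207 to 4.55 times the genome rate for HK2). For such spans a rate counted as close says little about stability. The other 22 of the 91 alternatives are these. Among the 11725 peaks ranked best by fold, the SLC2A1 span held 3 peaks (5.98% of tiles held as many), and the HK2, LDHA and PPARGC1A spans 0, which put their rates at 0 times the genome. At 2 times the lowest fold or more, SLC2A1 held 2 (6.94% of tiles held as many), while HK2, LDHA, PKM and PPARGC1A held 0, at a rate of 0. Counting peaks within 10 kb once, SLC2A1 held 4 places (1.99% of tiles held as many) and PKM 1. With 50 kb more at each end, HK2 held 3 peaks. Against the 1 Mb on either side, SLC2A1 stood at 3.88 times in place of 10.7. Without the SLC2A1 span, the pooled rate was 1.30 times the genome in place of 3.01. Among the 8 peaks at the lowest inferred input, where the fold is set by the tags, the median was 16 tags. The SLC2A1 rate ranged from 3.88 to 12.4 times over its 9 alternatives. The single peaks of HK2, LDHA and PPARGC1A had folds of 15.04, 15.54 and 14.03, below both stricter thresholds. The emptying of these spans therefore only restates the low folds of their peaks. PKM kept 2 peaks among the 11725 ranked best. A span with 1 peak cannot be told from the genome rate. No paired analysis was possible because there is 1 library of each kind.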
